A study of Mus musculus with 20 samples.

Results

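The cytosolic ribosomal protein genes were followed across 20 RNA-seq libraries of MB49, a mouse bladder cancer cell line. The members were all protein-coding genes named Rpl or Rps with a number, plus Rplp0, Rplp1, Rplp2 and Rpsa, outside the X and Y chromosomes and without the S6 kinase genes. This rule found 78 of the 28025 genes in the tumor tables, 47 of the large subunit and 31 of the small subunit. The tables of cultured cells list 76 of them among 14701 genes, and Rpl3l and Rpl39l are not listed there.

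Each of the 4 groups held 5 libraries of MB49: Y-negative tumors (libraries MN11 to MN15), Y-positive tumors (libraries MP6 to MP10), Y-negative cells in culture (BN2, BN3, BN6, BN9 and BN10) and Y-positive cells in culture (MB8, MB11, MB17, MB19 and MB34). Tumors grew under the skin of wild-type male C57BL/6 mice, whose cells carry a Y chromosome, and no drug is named for any group. Whether the libraries of a group are separate clones, dishes or animals is not given by the labels. The p-values below therefore rest on the scatter of these libraries, which may be technical.

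Ribosomal proteins coat the ribosomal RNA of the small subunit, which reads the messenger RNA, and of the large subunit, which joins amino acids. Their genes are among the most highly transcribed of growing cells, and their messengers typically begin with a terminal oligopyrimidine tract, a run of C and T through which mTOR and the protein LARP1 set their translation. Most of them are present in equal copy number in a ribosome, and the messengers are usually discussed as 1 co-regulated set.

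Libraries held between 14557118 and 21180885 reads. The 4 Y-linked genes examined (Kdm5d, Uty, Ddx3y and Eif2s3y) summed to 17.9 to 29.7 CPM (read counts scaled to a common library size) in Y-negative tumors and to 135.0 to 234.3 CPM in Y-positive tumors. The 2 of them listed for cultured cells, Kdm5d and Uty, summed to at most 0.0521 CPM in Y-negative and to at least 12.6 CPM in Y-positive cells. Of 9 bladder epithelial markers, Krt8 and Krt18 were abundant in every library, whereas the urothelial markers Upk1b and Upk2 did not exceed 0.323 CPM in any tumor and Krt5 did not exceed 1.6 CPM in any library.

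Ribosomal protein genes took between 7.17% and 14.8% of all reads in the tumors and between 8.64% and 12.7% in the cultured cells. The Y-negative tumors held 7.76% (MN11), 14.1% (MN12), 7.18% (MN13), 7.17% (MN14) and 14.5% (MN15). The Y-positive tumors held 8.64% (MP6), 9.72% (MP7), 13.1% (MP8), 14.8% (MP9) and 10.97% (MP10). The lowest shares were those of the Y-negative tumors MN14, MN13 and MN11, below the lowest Y-positive tumor, MP6. Both groups had libraries at the high end (MN12, MN15, MP8 and MP9), and the groups overlapped. The mean was 10.2% ± 3.82 (SD, n = 5) in Y-negative and 11.4% ± 2.49 (SD, n = 5) in Y-positive tumors. Cultured Y-negative cells ranged from 9.26% (BN9) to 12.7% (BN6), with a mean of 11.1% ± 1.40 (SD, n = 5), and Y-positive cells from 8.64% (MB11) to 11.4% (MB19), with a mean of 10.1% ± 1.24 (SD, n = 5). The reads of large subunit genes outnumbered those of small subunit genes 1.22-fold to 1.43-fold in the tumors and 1.38-fold to 1.58-fold in the cultured cells.

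The tumor share moved together with how each library weighted short against long genes. The length slope of a library is the change of its log2 deviation from the gene means per doubling of gene length, computed over genes that are no members. The tumors with few ribosomal protein reads had slopes of 0.171 (MN11), 0.165 (MN13) and 0.205 (MN14). Those with many such reads had slopes of -0.102 (MN12), -0.092 (MN15), -0.129 (MP8) and -0.224 (MP9). Ribosomal protein messengers are short, and the median deviation of the members spanned 1.26 log2 units over the 10 tumors, 0.82 after the trend on deposited gene length had been removed from every library, and 0.52 after the trend on the length of the principal transcript had been removed. In the cultured cells the same span was 0.51, 0.45 and 0.46. What set the length slopes was not tested.

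**Figure D1:**
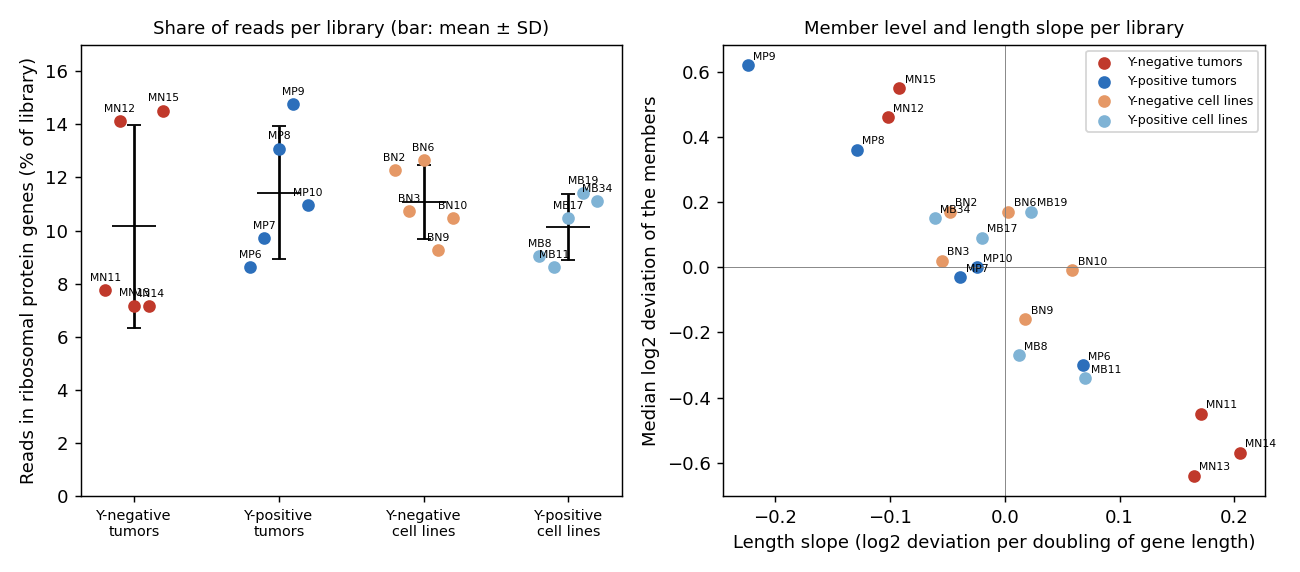
Left, percent of reads in ribosomal protein genes per library (points) with the group mean and SD (bars, n = 5). Right, the median log2 deviation of the members from their means over the tumors or over the cultured cells (y axis) against the length slope of the library (x axis): the tumor libraries run from MP9 at a slope of -0.224 and a deviation of 0.62 to MN13 at 0.165 and -0.64.

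Levels of single members were read first as the deposited FPKM, a read density scaled by gene length and library size. Averaged over the 10 tumors, the 5 highest of the 76 members that passed the filter on low counts were Rplp0 (6354 ± 2132 FPKM, SD, n = 10), the scaffold of the stalk that recruits elongation factors, Rpl41 (5370 ± 2664 FPKM), the shortest ribosomal protein, Rps14 (5276 ± 2756 FPKM), Rps18 (4347 ± 1972 FPKM) and Rpsa (4210 ± 1044 FPKM), also known as the laminin receptor precursor. The deposited gene length counts every exon of a gene, so levels were also taken as CPM per kilobase of the principal transcript. On that scale Rpl41 (5231), Rps18 (4565), Rplp0 (4099), Rps14 (3925) and Rps15 (3125) stood highest in tumors. The order of the 76 members in tumors and in culture was similar on that scale (Spearman's rho 0.83 across genes, a description, since the libraries share the gene lengths).

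Rplp0 reached 3792, 8228, 3304, 3487 and 7532 CPM in the Y-negative tumors MN11 to MN15, and 4747, 4242, 7467, 6842 and 6020 CPM in the Y-positive tumors MP6 to MP10. It followed the split of the total share, with MN12, MN15 and MP8 at the top. Rpl41 reached 2006, 3965, 1563, 1735 and 6085 CPM in MN11 to MN15 and 1999, 2099, 3894, 4606 and 2495 CPM in MP6 to MP10. MN15 stood above all others for Rpl41, whose 3.89-fold range over the tumors was the widest of the 76 members. Rps14 held 1722, 5218, 1668, 1598 and 5726 CPM in MN11 to MN15 and 1800, 1558, 3735, 3907 and 3879 CPM in MP6 to MP10. Rps18, a protein of the small subunit head, ran from 1303 CPM (MN13) to 4388 CPM (MN15), and Rpsa from 2902 CPM (MN11) to 5534 CPM (MP8).

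Members differed in how far they ranged. Over the 10 tumors 54 of the 76 ranged more than 2-fold and 15 more than 3-fold, whereas Rpl4, which lines the exit tunnel of the growing chain, stayed between 1958 and 2643 CPM (1.35-fold). Rpl6 varied 1.41-fold and Rpl29 1.46-fold. The highest tumor library was MP9 for 41 members and MN15 for 18, and the lowest was MN13 for 38 and MN14 for 26. Across the members, a wider range over tumors went with a shorter principal transcript (Spearman's rho -0.42 over 76 genes in the same libraries, a description). Over the cultured cells 25 members ranged more than 2-fold and 2 more than 3-fold, and the corresponding rho was -0.16.

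At the other end, 3 members of the core ribosome were listed below the rest, Rpl24 and Rps10 by far. Rpl24, a large subunit protein at the subunit interface, had 422 reads in all 10 tumors, 2.43 ± 0.99 CPM in Y-negative and 2.22 ± 0.535 CPM in Y-positive tumors (SD, n = 5). Rps10, on the small subunit near the entry of the messenger, had 6.68 ± 1.35 and 5.75 ± 3.47 CPM. Rpl13a ranged from 70.7 CPM (MN14) to 223.7 CPM (MN15). Apart from these 3 genes and the paralogs, the other 70 members lay between 359.9 and 6354 FPKM in tumors. These 3 are also the members whose principal transcript lies for more than 50% of its bases inside exons of another annotated gene on the same strand in GENCODE release 21: 71.5% for Rpl24 (Gm28037), 53.6% for Rps10 (RPS10-NUDT3) and 59.3% for Rpl13a (Gm45713). The neighbours were not analysed here, and the part of the overlap in the low values was not tested. Of the 75-base stretches of the principal transcript of Rps27, 98.5% recur in other genes, among them pseudogenes, and Rps27 was at 399.1 to 1216 CPM in tumors. In all, 74 of the 78 members share at least 1 such stretch with another gene, so levels of single members are uncertain where reads could be split between copies.

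The paralogs, tissue-restricted or alternative copies of core proteins, were all low. Rpl22l1 held 78.4, 162.9, 65.5, 62.6 and 142.6 CPM in MN11 to MN15 and 68.8, 84.6, 100.5, 163.9 and 91.3 CPM in MP6 to MP10, against 242.0 to 513.5 CPM of its partner Rpl22. Rpl7l1 ranged from 95.9 to 186.3 CPM in tumors against 1593 to 2796 CPM of Rpl7, and Rps27l, a p53 target, from 120.6 to 389.0 CPM. Rpl39l, best known from germ cells, had 34 reads over all tumors. Rpl3l, which replaces Rpl3 in skeletal and heart muscle, had 38 reads in the Y-negative and 150 in the Y-positive tumors, of which 93 lay in MP9. MP9 also held the most reads of the muscle markers Ckm, Acta1, Myh4 and Tnnt3, 1810 CPM in sum against 0.275 to 508.2 CPM in the other tumors. MP7, with the second most Rpl3l per library (1.60 CPM), held 438.9 CPM of the muscle markers. The part of muscle tissue in the Rpl3l reads was not tested. Rpl3 itself ran from 2203 CPM (MN14) to 3860 CPM (MN12).

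The sequences around the RefSeq start sites show the tract that marks the set, and where it is missing. RefSeq promoters (build GRCm38.p6, 250 bases before to 50 after each start) were found for 58 of the 78 members. A run of 8 or more C or T on the sense strand, touching the 20 bases on either side of the start, was present in 32 of 58 members (55.2%), against 23.9% of the 27025 genes with a promoter. CTTTCC in the same window was found in 19.0% of members and 2.66% of all genes. Over the whole window and both strands, CCGGAAG, a core that factors of the ETS family can bind, was found in 43.1% of members and 9.93% of all genes, AAGATGG in 17.2% and 7.28%, and GGGCGG in 60.3% and 38.2%. TATAAA, searched on the sense strand from 40 to 15 bases before the start, was found in 1.72% and 2.41%. Some annotated starts may lie away from the used start, and a missing match says only that these letters are not in the window. Shown are 40 bases before to 15 after the annotated start, with the run of 8 or more C or T in capitals, for the abundant Rps18, the mTOR pathway substrate Rps6, Rps26 (the smallest adjusted p between tumor genotypes), 3 members lower in tumors than in culture (Rpl18, Rpl22l1 and Rpl7l1) and Rpl41 (the most raised). They span chr17:33955651-33955705 (Rps18, minus strand), chr4:86857353-86857407 (Rps6, minus), chr10:128626492-128626546 (Rps26, minus), chr7:45718031-45718085 (Rpl18, plus), chr3:28805468-28805522 (Rpl22l1, plus), chr17:46782642-46782696 (Rpl7l1, minus) and chr10:128549154-128549208 (Rpl41, minus).
Rps18: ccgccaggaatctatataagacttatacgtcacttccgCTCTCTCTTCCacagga
Rps6: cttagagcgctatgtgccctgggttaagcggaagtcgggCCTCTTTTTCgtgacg
Rps26: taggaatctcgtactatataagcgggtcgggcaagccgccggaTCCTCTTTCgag
Rpl18: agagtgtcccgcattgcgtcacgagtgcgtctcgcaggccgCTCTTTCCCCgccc
Rpl22l1: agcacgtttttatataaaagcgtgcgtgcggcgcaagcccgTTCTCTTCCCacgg
Rpl7l1: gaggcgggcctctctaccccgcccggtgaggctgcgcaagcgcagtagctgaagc
Rpl41: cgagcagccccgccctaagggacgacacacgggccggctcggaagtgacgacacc
The runs of Rps18 and Rps6 begin 2 and 1 bases before the annotated start, and those of Rpl18 and Rpl22l1 at base 2 of the transcript. Rpl7l1 and Rpl41 have no run longer than 3 near the annotated start, although Rpl41 was the highest member per principal kilobase. Among the 7 shown, the run was present in members lower in tumors than in culture in both genotypes (Rpl18, Rpl22l1 and Rps6), in one higher in Y-positive tumors (Rps26; 0.43 ± 0.15, SE; adjusted p = 0.0136 by edgeR) and in one that passed in neither (Rps18). It was absent from Rpl7l1, which was lower too, and from Rpl41, which was higher. The call of Rps26 was lost with the trend on gene length removed (0.27, adjusted p = 0.0504 by edgeR). It was also lost with that on principal transcript length removed (0.06, adjusted p = 0.714).

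Between the genotypes, no ribosomal protein gene passed the test in tumors. Of 76 members tested, 0 were called by edgeR's quasi-likelihood F-test at an adjusted p under 0.05 (Benjamini-Hochberg over all genes), against 2.45% of the 14783 genes tested. At an unadjusted p under 0.05 there were 5 members, 6.58% of them, beside 22.7% of all genes. DESeq2 and limma-voom called 0 members. The median log2 change of the members, Y-negative against Y-positive, was -0.21, with 65 of 76 below 0, against -0.01 for all genes. The changes ran from -0.59 to 0.20. The median was -0.05 with the trend on gene length removed and -0.01 with that on principal transcript length, -0.06 without MP9 and -0.39 without MN15. With the length slope as a covariate it turned to 0.24 and 14 members were called, all higher in Y-negative tumors, where 2.24% of all genes were called higher in the same fit. Markers of bladder epithelium, of which Krt8 and Krt18 were abundant in the cultured cells too, and of host cell types had these values between the same groups. All 5 tested bladder epithelial markers had log2 changes below 0, none of them called (median -1.32), and the 9 of the list summed to 3519 to 4111 CPM against 4324 to 5437 CPM. Of 5 fibroblast markers, 2 had log2 changes above and 3 below 0 (median -0.01). The matrix gene Dcn was called higher (1.07 ± 0.14, SE, adjusted p = 0.00235 by edgeR). The collagen genes Col1a1 (-0.54 ± 0.29, SE) and Col1a2 (-0.99 ± 0.27, SE) lay below 0 and were not called. The fibroblast list summed to 545.9 to 1222 CPM against 737.2 to 1082 CPM. The 4 muscle markers had a median log2 change of -1.62, none called, and summed to 4.65 to 508.2 CPM against 0.275 to 1810 CPM. The 7 tested immune markers had a median of -0.15, none called, and summed to 854.9 to 1838 CPM against 908.3 to 1792 CPM. Their part in the member values was not tested.

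Rps26, at the exit of the messenger from the small subunit and a gene affected in Diamond-Blackfan anemia, had the smallest adjusted p. It held 1006, 1225, 1081, 1051 and 1178 CPM in MN11 to MN15 and 1250, 1573, 1669, 1538 and 1305 CPM in MP6 to MP10. The groups did not overlap for Rps26, the 1 member of 76 for which this was so, against 5.45% of all genes tested. Its log2 change was -0.41 ± 0.15 (SE; adjusted p = 0.14 by edgeR). Rplp2, a stalk protein, held 490.9, 622.3, 405.6, 442.8 and 666.0 CPM in MN11 to MN15 and 548.7, 858.4, 748.7, 1148 and 603.7 CPM in MP6 to MP10. The values of Rplp2 overlapped, and its log2 change was -0.58 ± 0.24 (SE; adjusted p = 0.18 by edgeR). Rpl14 held 911.2 to 1371 CPM in Y-negative and 1153 to 1655 CPM in Y-positive tumors, with a log2 change of -0.41 ± 0.18 (SE; adjusted p = 0.189 by edgeR).

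Grouped by role, no member of any group passed in tumors. The 3 stalk genes had a median log2 change of -0.39, the 9 exit tunnel genes -0.20, the 7 genes of the messenger path and decoding site -0.25, and the 18 genes known from Diamond-Blackfan anemia -0.20. Rpl5 and Rpl11, which leave the ribosome as a particle with a small ribosomal RNA and hold back Mdm2, the inhibitor of p53, had 1587 to 4001 CPM and 636.8 to 1553 CPM over the tumors, with both extremes among the Y-negative tumors. Rps6, a target of S6 kinase, ranged from 1017 CPM (MN11) to 1827 CPM (MP8), and Rps27a, made as a fusion with ubiquitin, from 599.8 CPM (MN14) to 1549 CPM (MP9).

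**Figure D2:**
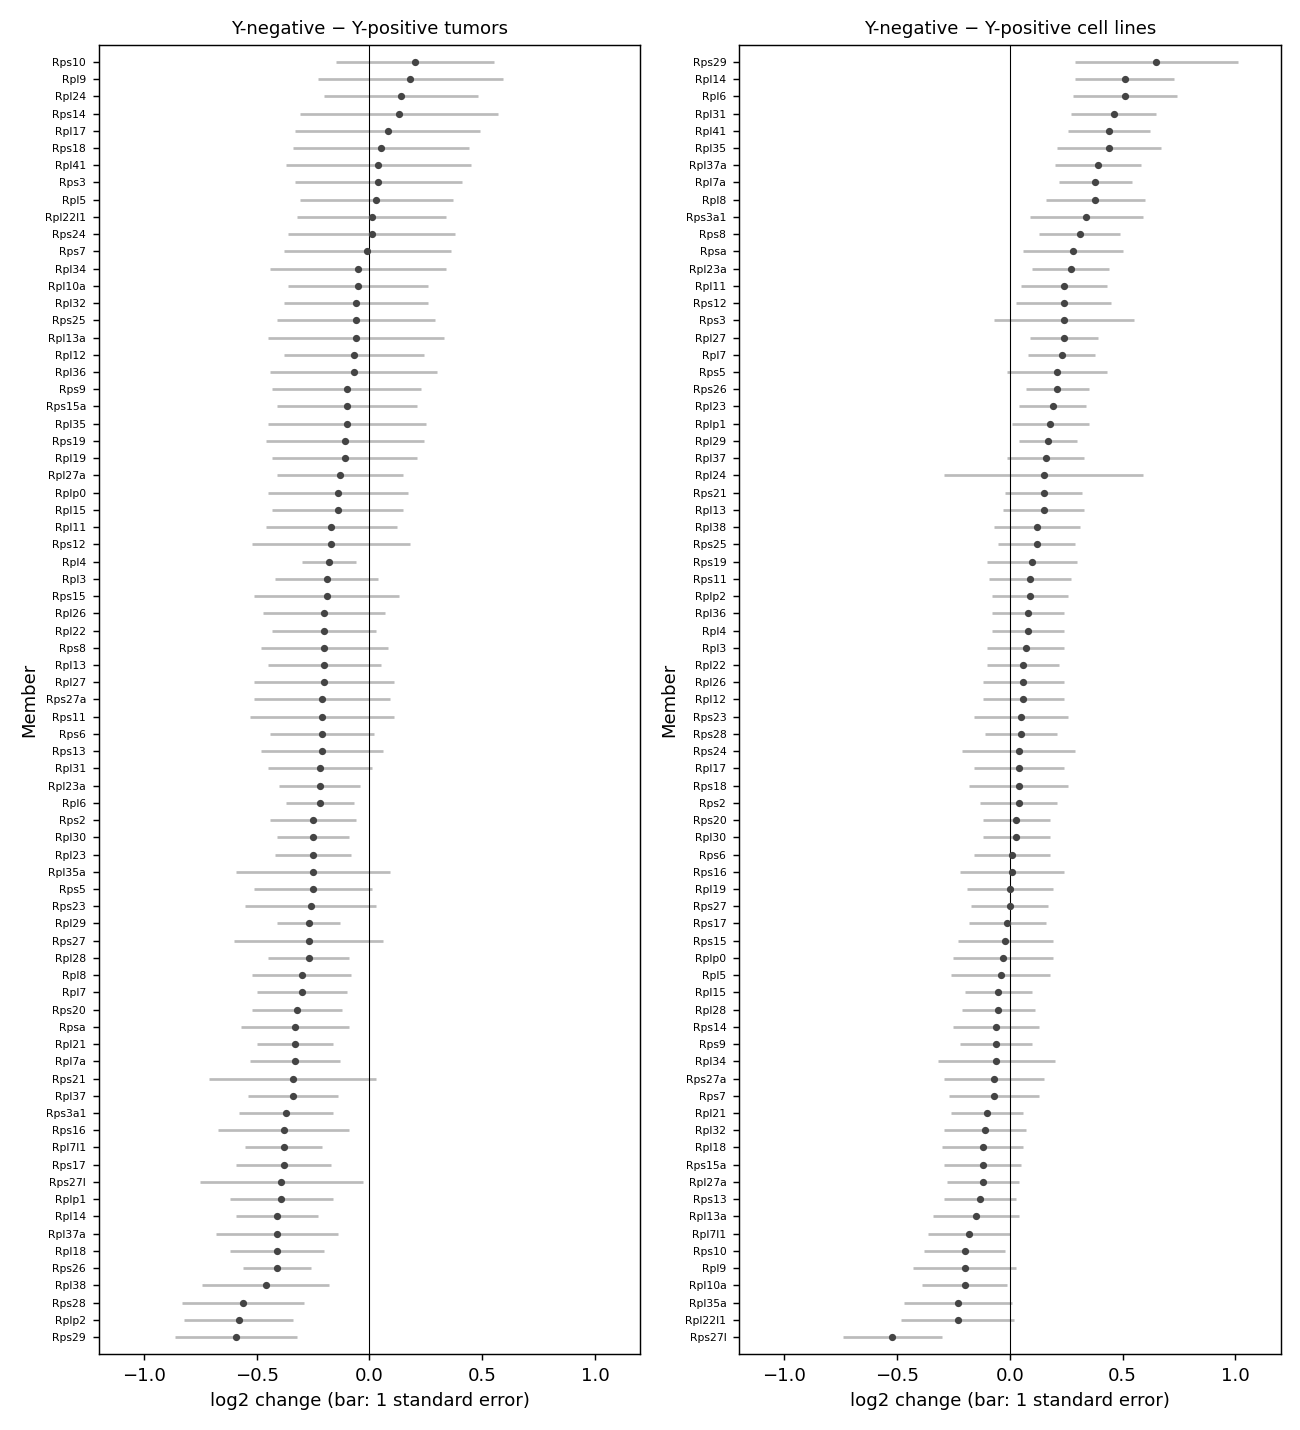
Log2 change of the tested members, Y-negative against Y-positive, in tumors (left) and cultured cells (right), sorted within each panel, with 1 standard error (bars, 5 libraries against 5). No member passed an adjusted p under 0.05; 65 of 76 tumor changes lie below 0 and 49 of 76 changes in culture lie above 0, with 1 of the 76 not drawn.

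In cultured cells, too, 0 of 76 members were called by edgeR, against 0.0321% of the 12446 genes tested. At an unadjusted p under 0.05 there were 7 members, 9.21% of them, beside 16.9% of all genes. DESeq2 and limma-voom called 0 members. The median log2 change was 0.06, with 49 of 76 above 0, against 0.02 for all genes. Rpl31, at the exit of the tunnel, had the smallest adjusted p. It held 427.6, 498.0, 504.2, 403.7 and 762.6 CPM in BN2, BN3, BN6, BN9 and BN10, and 360.1, 296.9, 305.2, 445.3 and 397.3 CPM in MB8, MB11, MB17, MB19 and MB34. Its groups overlapped through BN2, BN9 and MB19, and the log2 change was 0.46 ± 0.19 (SE; adjusted p = 0.243 by edgeR). Rpl41 held 745.9 to 1220 CPM in Y-negative and 554.1 to 843.6 CPM in Y-positive cells (log2 change 0.44 ± 0.18, SE; adjusted p = 0.246 by edgeR). Rps27l held 402.9, 441.4, 274.8, 331.4 and 238.7 CPM in the Y-negative and 432.8, 359.3, 545.6, 380.2 and 607.9 CPM in the Y-positive cells, in the same order of libraries. Its log2 change was -0.52 ± 0.22 (SE; adjusted p = 0.255 by edgeR), and it was the 1 member called when the length slope was a covariate (-0.59, adjusted p = 0.0493), where 0.354% of all genes were called lower. Groups without overlap were found for 2 of 76 members, Rpl29 and Rps26, against 3.82% of all genes tested. Rps26 was thus higher in all 5 Y-negative than in all 5 Y-positive cultures (1089 to 1319 against 877.2 to 1058 CPM), the reverse of the tumors. Its log2 change in culture was 0.21 ± 0.14 (SE; adjusted p = 0.448 by edgeR), and it passed in neither tumors nor culture.

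The difference of the 2 genotype changes, tumors minus cultured cells, called 0 of 76 members by edgeR, against 4.56% of 13740 genes. At an unadjusted p under 0.05 there were 15 members, 19.7% of them, beside 22.7% of all genes. The median difference was -0.31 in log2, beside -0.07 for all genes. Rpl14 had the smallest adjusted p (-0.97 ± 0.29, SE; adjusted p = 0.0601 by edgeR), then Rps26 (-0.67 ± 0.21, SE; adjusted p = 0.0617) and Rpl7a, a large subunit protein (-0.75 ± 0.26, SE; adjusted p = 0.0938). The 3 passed without MN12, with adjusted p of 0.0326, 0.0404 and 0.038. Rpl14 and Rps26 passed without MP6 (0.0455 and 0.043), and Rpl14 passed without BN9 (0.0298) or MB19 (0.0378). Rps26 also passed with library totals alone as the scale (-0.68, adjusted p = 0.0395 by edgeR). Of 26 alternatives, Rpl14 did not pass in 22, Rps26 in 23 and Rpl7a in 25. The share of all genes called in these alternatives was not counted.

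Some members were higher and others lower in tumors than in culture. Against culture, 5 members were higher and 27 lower in Y-negative tumors, 6.58% and 35.5% of the 76 tested, where 28.1% and 27.9% of all 13740 genes were called higher and lower. In Y-positive tumors 17 were higher and 13 lower, 22.4% and 17.1%, where 31.7% and 30.1% of all genes were called. The median log2 change of the members was -0.30 in the Y-negative and -0.06 in the Y-positive comparison, beside 0.02 for all genes in both. With library totals alone as the scale, which moves the median of all genes to 0.20 and 0.21, the counts were 8 higher and 23 lower, and 24 higher and 10 lower. With the trend on principal transcript length removed they were 5 and 34, and 11 and 34, and without MP9 the Y-positive counts were 13 and 17. In both genotypes 5 members were higher and 12 lower. The share of all genes called was not counted for both genotypes together or for these alternatives. Kind of sample and kind of table coincide here and cannot be told apart. In bulk RNA, a smaller share of a cell type and less RNA per cell cannot be told apart either.

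The tumors also held host cells. The pan-leukocyte gene Ptprc was at 69.2 to 146.7 CPM in tumors and at most 1.196 CPM in culture, and the fibroblast gene Col1a1 at 75.2 to 405.8 CPM and at most 6.29 CPM. The 8 immune markers summed to 854.9 to 1838 CPM in tumors, and the 4 of them listed for culture to 33.3 to 180.0 CPM, mostly Cd68. The 5 fibroblast markers summed to 545.9 to 1222 CPM in tumors and the 3 listed for culture to 12.8 to 48.4 CPM. Against culture, Cd68 (log2 changes -0.08 and 0.01) and the fibroblast marker Pdgfra (-0.23 and 0.13) did not pass in Y-negative or Y-positive tumors. The other 3 immune and 2 fibroblast markers tested were called higher in both, where 28.1% and 31.7% of all genes were called higher. The part of host cells in the differences below was not tested.

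Rpl41 was the most raised member. Cultured Y-negative cells held 965.7, 861.1, 1220, 745.9 and 1190 CPM (BN2, BN3, BN6, BN9 and BN10) and Y-positive cells 660.3, 554.1, 723.5, 724.8 and 843.6 CPM (MB8, MB11, MB17, MB19 and MB34). Every tumor exceeded every culture of the same genotype for Rpl41. Such separation was common: 4769 of the 13740 genes tested did not overlap in the Y-negative comparison and 6371 in the Y-positive one. Of the 76 members, 3 lay higher and 8 lower without overlap in the Y-negative comparison, and 17 and 4 in the Y-positive one. The log2 change of Rpl41 was 1.51 ± 0.35 in Y-negative (SE; adjusted p = 0.000821 by edgeR) and 1.95 ± 0.35 in Y-positive tumors (adjusted p = 5.2e-05). Rpl37a, a zinc-binding large subunit protein, held 458.3 to 913.7 CPM in Y-negative and 622.7 to 1191 CPM in Y-positive tumors, against 260.3 to 516.5 and 203.5 to 323.1 CPM in the cultures. It rose by 0.76 ± 0.25 in log2 (SE; adjusted p = 0.0133 by edgeR) and by 1.60 ± 0.25 (adjusted p = 1.2e-05). In the Y-negative comparison Rpl37a lost its call without MN15 (0.57, adjusted p = 0.0568). Rpl24 rose as well (1.26 ± 0.40 and 1.32 ± 0.41 in log2, SE), from 0.919 and 0.803 CPM, at the low level described above.

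Among the lowered members were 3 paralogs. Rpl7l1 fell from 311.5, 285.8, 265.3, 242.6 and 151.4 CPM in the Y-negative cultures to 114.1, 151.0, 95.9, 103.1 and 132.7 CPM in MN11 to MN15. All tumors lay below all cultures of the same genotype. Its log2 change was -1.23 ± 0.19 in Y-negative (SE; adjusted p = 1.3e-05 by edgeR) and -0.98 ± 0.19 in Y-positive tumors (adjusted p = 0.000115). Rpl22l1 changed by -0.91 ± 0.32 and -1.10 ± 0.32, and Rps27l by -0.89 ± 0.33 and -0.98 ± 0.33. In the Y-negative comparison the call of Rpl22l1 was lost without BN3 (-0.75, adjusted p = 0.0608), and that of Rps27l without MN11, MN13, MN14, BN2 or BN3 (-0.82 to -0.77, adjusted p 0.0526 to 0.0638). Of the partners, Rpl22 and Rps27 did not pass in either genotype, Rpl7 did not pass in either, and Rpl3 fell in Y-negative tumors (-0.72 ± 0.21, SE; adjusted p = 0.00564 by edgeR).

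Rpl18, a large subunit protein, fell from 2094, 2860, 2127, 2133 and 1854 CPM in the Y-negative cultures to 897.8, 1399, 863.9, 879.6 and 1234 CPM in MN11 to MN15. The groups did not overlap in either genotype, and the log2 changes were -1.21 ± 0.21 and -0.87 ± 0.21 (SE; adjusted p = 4.6e-05 and 0.00101 by edgeR). Rps27a fell from 1273 to 2479 CPM in Y-negative cultures to 599.8 to 1349 CPM in tumors, with log2 changes of -1.13 ± 0.28 and -0.95 ± 0.28 (SE). Rps6 changed by -0.87 ± 0.21 and -0.61 ± 0.21 and passed in both genotypes. The stalk genes Rplp1 and Rplp2 fell in Y-negative tumors, with log2 changes of -0.89 ± 0.21 and -1.0 ± 0.22 (SE), and did not pass in Y-positive tumors (-0.28 and -0.29), a difference between genotypes that did not pass either (adjusted p = 0.219 and 0.174). Rpsa, also a scaffold of the small subunit, was higher in Y-positive tumors (0.73 ± 0.24, SE; adjusted p = 0.0111 by edgeR) and did not pass in Y-negative tumors (0.08 ± 0.24); the difference did not pass (-0.65 ± 0.34, SE; adjusted p = 0.257). Rpl5 and Rpl11 did not pass in either genotype.

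**Figure D3:**
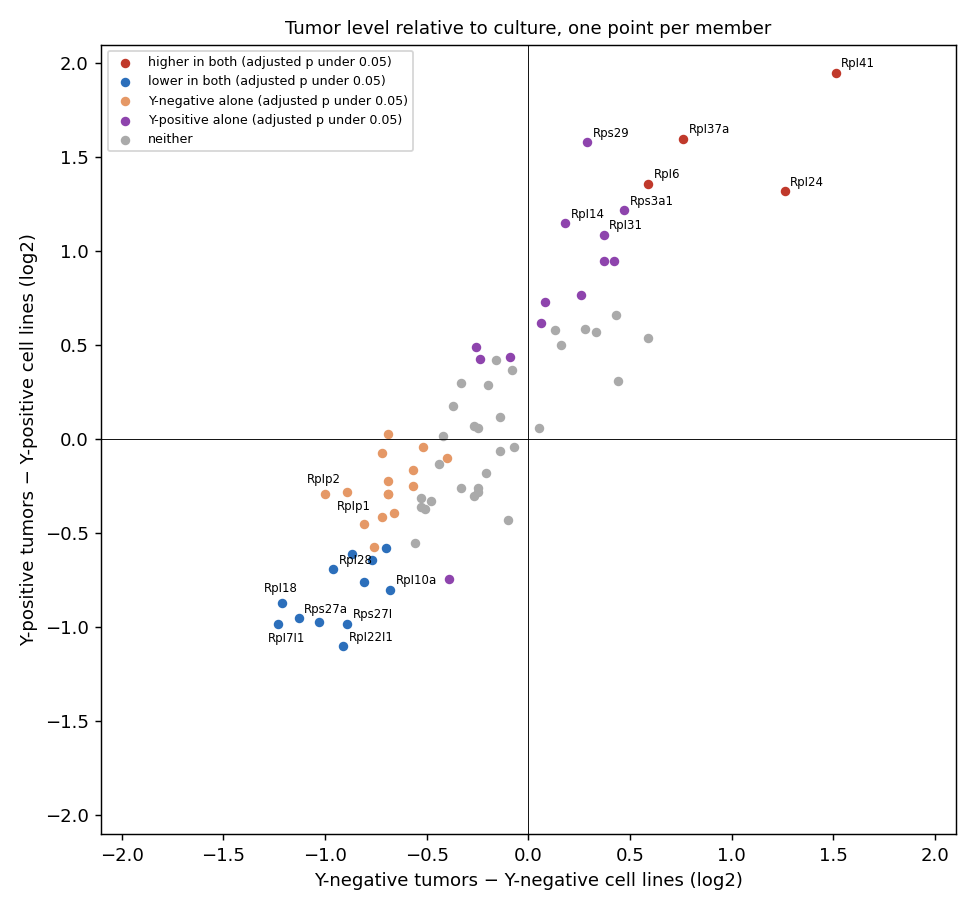
Log2 change of the members (1 of 76 not drawn), tumor against culture, in the Y-negative (x axis) and Y-positive (y axis) comparison; colors give which comparison passed an adjusted p under 0.05. Rpl41 stands at 1.51 and 1.95, Rpl7l1 at -1.23 and -0.98.

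**Figure D4:**
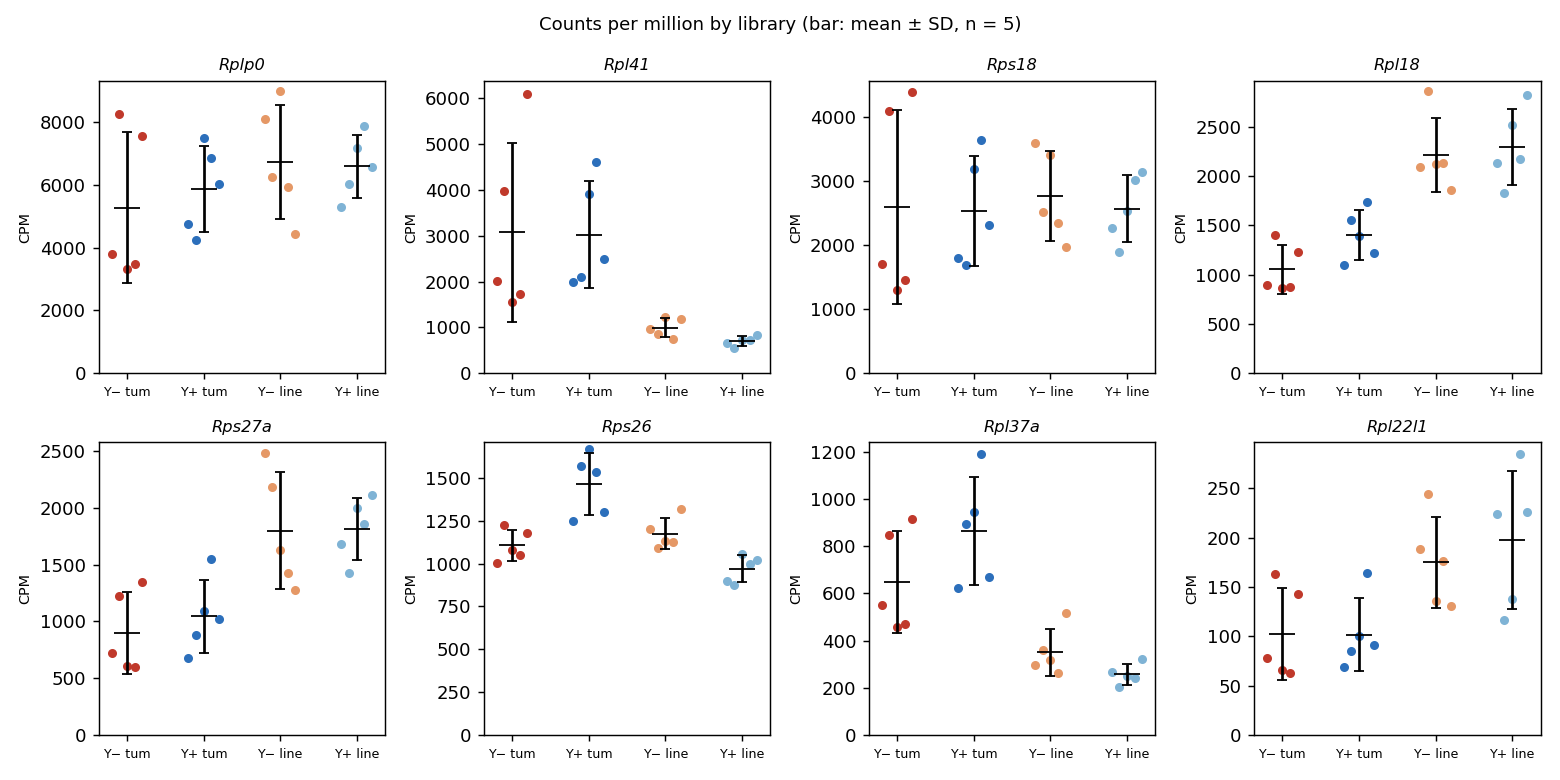
CPM per library (points) of 8 members with the group mean and SD (bars, n = 5). Rpl41 and Rpl37a lie higher and Rpl18, Rps27a and Rpl22l1 lower in tumors than in culture. Rps26 separates the genotypes in opposite order in tumors and in culture, without passing the test in either.

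The cultures differed among themselves in which members were high. BN10 was the highest culture for 20 members and the lowest for 19, so that its total share (10.5%) lay within the range of its group. Rps29, a small subunit protein, held 253.0 CPM in BN10 against 49.0 to 150.6 CPM in the other cultures, the widest range of the 76 members there (5.17-fold). Rpl6 held 1919 CPM in BN10, 1489 CPM in BN6 and 713.3 to 933.4 CPM in the other 8. Rpl14 reached 1293 CPM in BN10 and 444.1 CPM in MB17. On the other side, Rpl35a was at 732.9 CPM in BN10 and at 970.4 to 1704 CPM elsewhere. Rps3, on the small subunit near the entry of the messenger, was high in BN6 (3853 CPM), MB19 (3337 CPM) and BN10 (3150 CPM) and between 1370 and 2216 CPM in the other 7.

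The order of the members in BN10 resembled that of the tumor against culture changes. To keep the libraries apart, each Y-negative culture was set against the other 4 and compared, across the 76 members, with the change of Y-positive tumors against Y-positive cultures. Spearman's rho was 0.71 for BN10 and 0.31 for BN6, and -0.39 for BN2, -0.51 for BN3 and -0.60 for BN9. Over the 13664 other genes rho was 0.43 for BN10, 0.24 for BN6, -0.14 for BN2, -0.31 for BN3 and -0.40 for BN9. For the 5 Y-positive cultures, set in the same way against the change of the Y-negative tumors, rho over the members was -0.02 (MB8), 0.11 (MB11), -0.39 (MB17), 0.33 (MB19) and -0.24 (MB34). These values describe genes, which are not independent, and the 5 libraries share each other as their reference. In BN10 the 17 members higher in Y-positive tumors had a median log2 deviation of 0.60 from the other cultures and the 13 lower ones one of -0.30. Of the immune and fibroblast markers in BN10, Ptprc stood at 0.111 CPM, Csf1r at 0.39 CPM and Col1a1 at 6.29 CPM. Cd68, which did not pass between tumors and culture, stood at 176.9 CPM. Col1a1 and Cd68 were at their highest among the cultures in BN10, and the other immune and fibroblast markers listed for culture were not. Lyz2, Col1a2 and Pdgfra stood at 2.67, 0.779 and 11.6 CPM in BN10 and at 5.59, 1.73 and 18.8 CPM in BN2. Ptprc and Csf1r were highest in MB11 (1.196 and 0.468 CPM). The part of these markers was not tested. The proliferation markers summed to 1481 CPM in BN10, 1057 to 1349 CPM in the other Y-negative cultures and 2184 to 3232 CPM in the tumors. They did not all go the same way in BN10. Mki67 (178.5 CPM), Top2a (422.4 CPM), Mcm6, Ccnb1 and Ccnb2 were at their highest among the cultures there. Mcm2 (65.7 CPM) was at its lowest, and the others lay in between. Without BN10, 5 members were higher and 28 lower in Y-negative tumors than in culture, beside 5 and 27 with it. The share of all genes called was not counted without BN10.

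**Figure D5:**
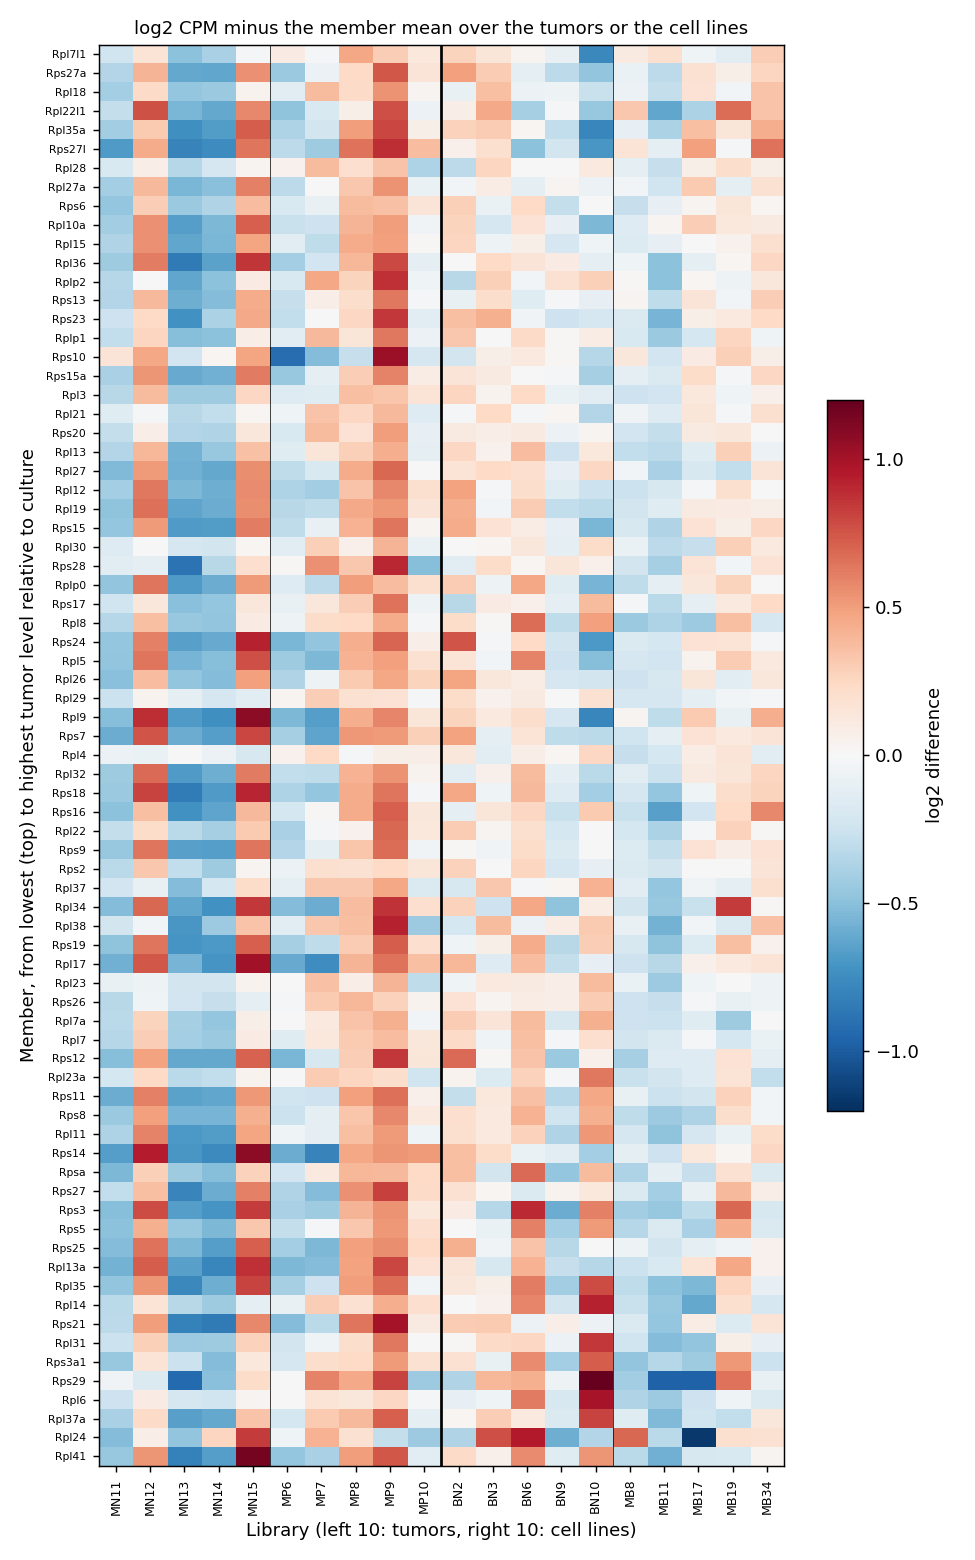
Log2 CPM of the members (rows, 1 of 76 not drawn) in each library (columns), minus the mean of that member over the tumors (left 10) or over the cultures (right 10), with rows ordered by the mean tumor against culture change. Most rows are low in MN11, MN13 and MN14 and high in MN12, MN15 and MP9, while in BN10 many of the lowest rows are high and several of the top rows low; colors saturate at the ends of the scale.

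Genes that act with the ribosome were read from 4 lists. Between genotypes, 2.45% of all genes tested passed in tumors and 0.0321% in culture, so a count of 0 in lists this short says little. Of 19 factors whose messengers carry the pyrimidine tract, 0 passed between tumor genotypes or between culture genotypes, with median log2 changes of -0.16 and 0.19. The 3 with the smallest p in tumors were Eif3f, Eif3k and Eef1d, with log2 changes of -0.35 ± 0.14, -0.46 ± 0.20 and -0.34 ± 0.16 (SE). Of 33 ribosome assembly genes 0 passed in either, with medians of -0.32 and 0.11. Those with the smallest p were Fbl, the methylase of ribosomal RNA (99.5 to 115.5 CPM in Y-negative and 128.2 to 203.0 CPM in Y-positive tumors), Nmd3, which exports the large subunit (58.6 to 78.2 and 86.9 to 106.4 CPM), and Wdr12 (53.8 to 69.4 and 76.5 to 87.4 CPM). Their adjusted p were 0.0725, 0.0884 and 0.0886 by edgeR. The tumor groups did not overlap for these 3 and for 6 others, 9 of the 33, all lower in Y-negative tumors, beside 3.39% of all genes tested. Of 19 other initiation and elongation factors 0 passed in tumors (median -0.15), with Eif6, Eif4ebp2 and Eif5 first, and of 17 tested genes of RNA polymerase I and growth control 0 passed (median 0.14). Among the latter, log2 changes were 0.63 ± 0.23 for Mtor, 0.41 ± 0.21 for Larp1 and 0.29 ± 0.13 for Rps6kb2 (SE), whose groups did not overlap. In the difference of the genotype changes, tumors minus cultured cells, 4 assembly genes passed, all lower: Bop1 (-0.66 ± 0.17, SE; adjusted p = 0.0353 by edgeR), Dkc1 (-0.82 ± 0.21; 0.0297), Rrp9 (-0.88 ± 0.25; 0.0483) and Wdr43 (-0.63 ± 0.17; 0.0342). Of the tract-bearing factors Nap1l1 passed (-0.87 ± 0.24, SE; adjusted p = 0.0399), and 0 of the other 19 factors and of the 17 RNA polymerase I and growth control genes did, beside 4.56% of all genes. Bop1, Rrp9 and Wdr43 act in ribosomal RNA processing, and Dkc1 makes pseudouridine in it.

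Against culture, most assembly genes were lower. As above, 28.1% and 27.9% of all genes were called higher and lower in Y-negative tumors, and 31.7% and 30.1% in Y-positive tumors. Of the 33 assembly genes 26 fell and 2 rose in Y-negative tumors and 19 fell and 9 rose in Y-positive tumors, with medians of -0.74 and -0.43. Wdr12 fell from 111.8 to 264.2 CPM in Y-negative cultures to the values above, by 1.97 ± 0.19 on the log2 scale (SE; adjusted p = 1.54e-08 by edgeR). Of the 19 tract-bearing factors 5 rose and 3 fell in Y-negative and 10 rose and 1 fell in Y-positive tumors, with medians of 0.06 and 0.60. Eif3k rose in both genotypes (0.74 ± 0.22 and 1.39 ± 0.23, SE). Of the 19 other factors 9 and 8 fell and 0 rose, among them Eif6, which keeps the subunits apart (-1.73 ± 0.17 and -1.47 ± 0.17, SE). As for the members, host cells were present in the tumors and their part was not tested.

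Outside the rule lie 4 X-linked ribosomal protein genes and Rps4l, a transcribed processed copy of one of them, Rps4x. Rps4l held 1.08, 1.01, 1.23, 1.82 and 1.51 CPM in MN11 to MN15 and 2.42, 4.63, 4.25, 6.33 and 2.28 CPM in MP6 to MP10, and it is not listed for cultured cells. The groups did not overlap, and the log2 change was -1.61 ± 0.36 (SE; adjusted p = 0.0383 by edgeR). The call was lost without MN11, MN13, MN14, MP7, MP8 or MP9 (adjusted p 0.0628 to 0.121), with the length slope as a covariate (0.111), with limma-voom (0.0719) and with either length trend removed (0.0591 and 0.0562), and it held with DESeq2. Rps4x held 1409 to 1671 CPM in Y-negative and 1732 to 2112 CPM in Y-positive tumors, without overlap (-0.32 ± 0.14, SE; adjusted p = 0.198 by edgeR). Rpl10, Rpl36a and Rpl39 did not pass between genotypes in tumors or in culture.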

How the data were processed

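RNA-seq was measured in 20 libraries. Libraries came from a SMARTer mRNA kit, per the labels' protocols. Per the submitters' processing notes, the build was mm10 (GRCm38) and the tools included STAR 2.7.0d, cutadapt 2.3, MultiQC 1.8, FastQC 0.11.5 and RSEM 1.3.1, with no role stated. Annotation, strandedness and how reads were counted: not given in the sources used here. The deposited tables hold whole-number read counts per gene, which were tested. Levels were read from FPKM that the authors deposited. A further column was not used, since in the table of MN14 it carries the code of MN13. The count columns of MN14 and MN13 carry their own codes and differ. Gene IDs matched GENCODE release 21 for 28067 of 28076, which also gave the names that the table of MN12 lacks.

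CPM are counts over the library total, between 14557118 and 21180885 reads. Counts were tested in R 4.3.3 with edgeR 4.0.16, using TMM scaling, filterByExpr (minimum count 10, total 15) and the quasi-likelihood F-test. Adjustment was by Benjamini-Hochberg over all genes. Tumors and cultures were fitted apart for genotype, and a model of 4 group means over the genes of both kinds of table gave the other comparisons. A standard error is the change over the square root of F. The length trend was a lowess curve (span 0.3) per library on genes that are no members. On simulated counts for 5 against 5 libraries, 60.5% of 200 genes changed 2-fold and 7% of those changed 1.5-fold were recovered in tumors (14521 and 14550 genes), and 63.5% and 6% in cultures (12289 and 12278 genes). Alternatives used DESeq2 1.42.0 and limma 3.58.1.

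The members and lists were chosen with earlier results of these data known. Named genes are the 5 highest and 3 lowest members by tumor FPKM, the 3 smallest adjusted p per genotype comparison, the 4 largest tumor against culture changes in each direction, the paralogs with their partners, and the stalk, Rpl5, Rpl11, Rps6, Rpsa and Rps27a. Rpl4, Rpl6, Rpl13a, Rpl29, Rpl35a, Rps3, Rps15 and Rps29, and of other lists Bop1, Dkc1, Rrp9, Wdr43, Nap1l1 and Dcn, were named after their values were seen. The result of 1 member chosen by this rule is not reported here.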

Additional observations from a re-analysis of the deposited data

Results flagged for a closer look

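Among 113 sets of 5 libraries of a named member or of the total share, 4 had 1 library far from the others; chance gives about 1 in 20. Rpl18 stood at 2860 CPM in the Y-negative culture BN3, the other 4 between 1854 and 2133 CPM. Rpl31 stood at 762.6 CPM in the Y-negative culture BN10, the others between 403.7 and 504.2 CPM. Rpl3l stood at 5.31 CPM in the Y-positive tumor MP9, the others between 0.220 and 1.60 CPM, and the muscle markers were highest in the same library. Rps10 stood at 11.8 CPM in MP9, the others between 3.08 and 5.04 CPM.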

How the results depend on the processing

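The other scalings, the filter, the 2 other tools and leaving out each library were planned, and the principal transcript length was chosen after seeing the data. Between genotypes, the length slope as a covariate gave 14 called members in tumors and 1 in cultures, against 0 under every other alternative run. For the difference of the genotype changes, library totals alone gave 1 called member (Rps26), and leaving out each library gave 0 to 3. For tumor against culture, called members numbered 28 to 39 (Y-negative) and 25 to 45 (Y-positive) over 26 alternatives each, within 1.5 times the 32 and 30 reported. The median change of members ran from -0.39 to 0.24 between tumor genotypes, -0.02 to 0.12 between culture genotypes, -0.52 to -0.15 (Y-negative) and -0.34 to 0.11 (Y-positive) against culture. The cause of these shifts was not tested. The mean share of reads moved by less than its SD without mitochondrial genes, over shared genes or with pseudogenes added. No paired analysis was possible because the labels give library codes and no pairing, and the groups compared share at most 1 number in those codes (MP8 and MB8). Rpl24 had 6 to 29 reads per culture, where counting error limits what can be seen.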
